A study of Drosophila melanogaster with 30 samples.

Results

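*Npc1a*, *Npc1b*, *Start1*, *Osbp* and *ScpX* encode proteins that bind sterols or move them between membranes, and their transcript levels were followed through a change of dietary cholesterol in whole third-instar *Drosophila* larvae. The 5 genes were listed by name, with no threshold on a measured value, out of 17713 features in the deposited tables. They were chosen with earlier results of these data known. RNA was sequenced from 3 genotypes on 2 diets, with 5 replicates of 5 pooled larvae in each of the 6 groups (30 libraries). All animals carried *Tub-GAL80TS/+ Tub-GAL4/+*, a ubiquitous GAL4 driver held off at 18 °C by a temperature-sensitive GAL80 repressor and released at 29 °C. Controls carried nothing further, *HR3-RNAi* animals also carried *UAS-Hr3-RNAi/+*, directed against the gene of the nuclear receptor HR3, and *TOR-RNAi* animals also carried *UAS-Tor-RNAi/+*, directed against the kinase gene *Tor*. After 10 h on low-cholesterol food (1.2 µg/mL), larvae spent a further 10 h either on the same food (low cholesterol) or on food with 80 µg/mL cholesterol (refed). Because each library holds whole animals, a lower level in a few cells and a loss of those cells cannot be told apart.

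Insects do not synthesize sterols and take them from food. Dietary sterol enters through the midgut epithelium, where *Npc1b*, one of a pair of fly relatives of the human Niemann-Pick type C1 gene, is required for absorption. Sterol taken up with lipoproteins reaches late endosomes and lysosomes, and the broadly expressed *Npc1a* product exports it from there together with soluble Npc2 proteins. *Start1* encodes a membrane protein with a StAR-related lipid transfer domain, known for its expression in the prothoracic gland, which turns cholesterol into ecdysone. *Osbp* encodes the oxysterol-binding protein, which in mammals exchanges sterol for phosphatidylinositol 4-phosphate at contacts between the endoplasmic reticulum and the Golgi. *ScpX* encodes a thiolase joined to a sterol carrier protein 2 domain, whose mammalian counterpart is peroxisomal.

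In the Ensembl annotation of BDGP6.54, *Npc1a* (FBgn0024320) lies on the minus strand of chromosome arm 2L from 10213812 to 10221216, with 7 transcripts of 12 exons each and a protein of 1283 to 1287 residues. *Npc1b* (FBgn0261675) is on the plus strand of chromosome X from 20934869 to 20939503, with 1 transcript of 6 exons and 1254 residues. *Start1* (FBgn0035028) spans 24574559 to 24577676 on the plus strand of 2R, with 4 transcripts and 343 to 583 residues. *Osbp* (FBgn0020626) spans 24934869 to 24938222 on the minus strand of 3R, with 1 transcript of 2 exons and 784 residues. *ScpX* (FBgn0015808) spans 18831229 to 18833630 on the plus strand of 2L, with 1 transcript of 5 exons and 544 residues. The end of *Start1* overlaps the opposite-strand gene *SIFa* by 111 bases, and that of *Osbp* overlaps *CG11771* by 51 bases. Whether the counting used strand is not given in the sources used here, so reads from these stretches could not be assigned with certainty.

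Libraries held between 19744564 and 33510753 counts. All 5 genes were measured far above the smallest level used here, 3 counts (0.0905 to 0.174 CPM, the count relative to the library's total, depending on the library and for counting error only): the lowest count in any library was 407 for *Start1*, 1452 for *Npc1a*, 1963 for *Npc1b*, 2246 for *Osbp* and 4232 for *ScpX*. *Tor*, listed as *mTor*, was lower in *TOR-RNAi* animals than in controls, with a log2 difference of -0.51 (SE 0.104) on low cholesterol and -0.79 (SE 0.105) after refeeding (Benjamini-Hochberg adjusted p = 0.00283 and 1.15e-05 from edgeR). *Hr3* was near the smallest measurable level, between 0.106 and 0.820 CPM in controls and between 0.162 and 0.387 in *HR3-RNAi* animals, and no decrease was detectable at this depth. Libraries also differed in the summed level of the non-coding RNAs *roX1* and *roX2*, which mark male cells, from 3.83 to 184.5 CPM. In controls this sum was 69.1 to 184.5 CPM on low cholesterol (median 94.8) and 10.3 to 166 CPM after refeeding (median 50.8). The medians on the 2 diets were 98.1 and 109 CPM in *HR3-RNAi* animals and 124 and 72.0 CPM in *TOR-RNAi* animals. Neither RNA was called with diet in any genotype. The labels do not say whether replicates were separate cultures, so p-values measure the spread between these pools.

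Levels are given as CPM, scaled between libraries by the trimmed mean of M values (TMM). Diets were compared within each genotype with edgeR's quasi-likelihood test, and a gene with a Benjamini-Hochberg adjusted p under 0.05 over all genes tested was called changed. In controls, 2 of the 5 genes were called, *Npc1b* and *Osbp*, both lower after refeeding. For comparison, 3.83% of the 11374 genes tested in controls were called and 1.34% were called as fallen. In *HR3-RNAi* animals 3 of 5 were called, *Npc1b* and *Osbp* as fallen and *ScpX* as risen, against 3.44% of all genes tested (1.86% fallen, 1.58% risen). In *TOR-RNAi* animals only *Npc1b* was called among the 5, as fallen, against 0.562% of all genes tested (0.182% fallen). The median log2 fold change of the 5 genes was 0.11, -0.01 and 0.09 in the 3 genotypes, beside medians of all genes tested that lay within 0.01 of 0.

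**Figure D1:**
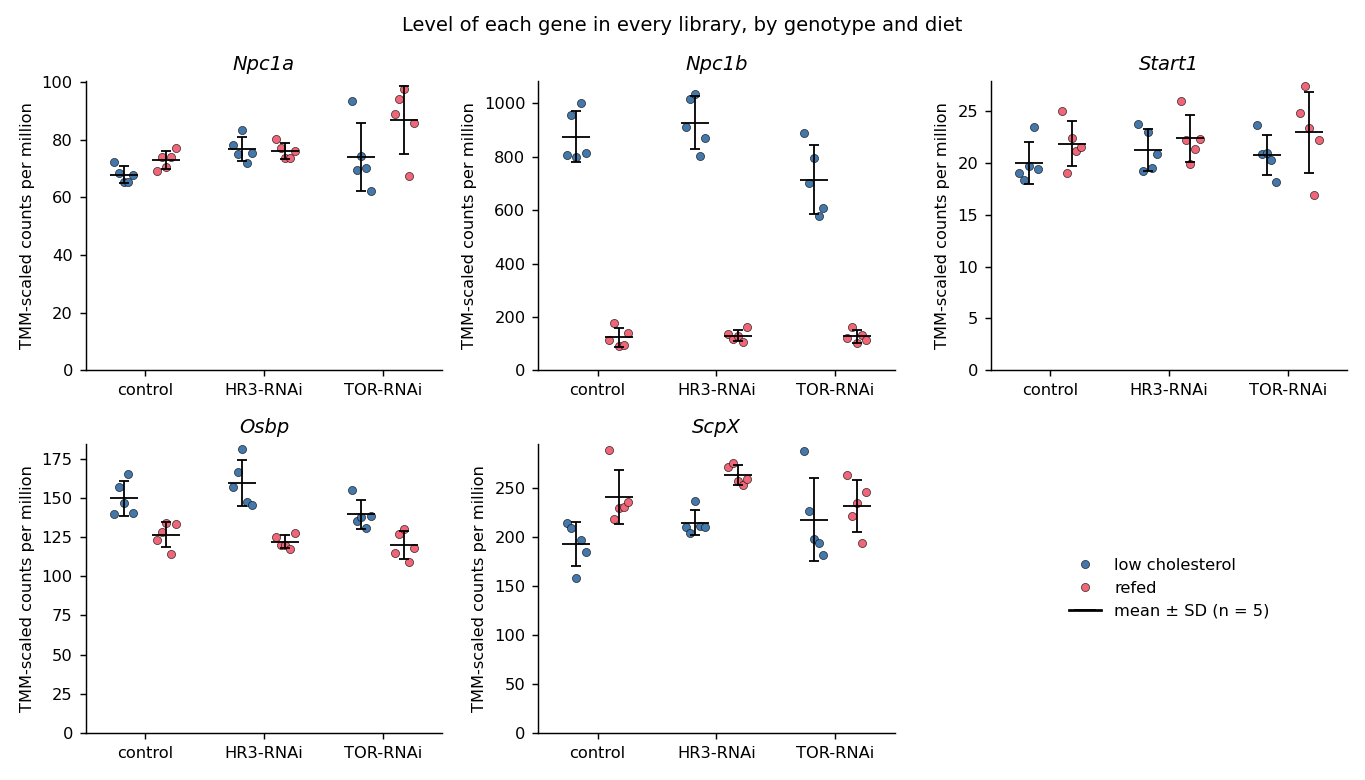
Level of each gene in every library, in TMM-scaled CPM on axes that start at 0, for the 3 genotypes on low cholesterol (blue) and refed (red). Points are libraries, and bars give the mean ± SD of 5 replicates. *Npc1b* separates the diets in every genotype, from 577 or more to 175 or less, while the other genes differ by at most 25.0% of their level.

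*Npc1b*, the midgut gene of the pair, had the largest response. In controls on low cholesterol, replicates 1 to 5 had 806, 955, 798, 1001 and 813 CPM, and after refeeding 113, 175, 91.9, 94.7 and 139 CPM. The lowest low-cholesterol library stood far above the highest refed one. The refed mean was 14.0% of the low-cholesterol mean, a log2 fold change of -2.83 (SE 0.183, 95% interval -3.23 to -2.42, adjusted p = 8.84e-06). By size of fall, *Npc1b* ranked 5 among the 11374 genes tested in controls.

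*HR3-RNAi* animals showed the same separation of the diets. Their libraries had 912, 1018, 1037, 804 and 872 CPM of *Npc1b* on low cholesterol and 134, 118, 126, 107 and 163 CPM after refeeding. The log2 fold change was -2.84 (SE 0.117, 95% interval -3.10 to -2.58, adjusted p = 1.24e-07), and the refed mean was again 14.0% of the low-cholesterol mean. *TOR-RNAi* animals had 889, 701, 797, 577 and 607 CPM on low cholesterol and 122, 162, 102, 134 and 112 CPM after refeeding. Here the log2 fold change was -2.50 (SE 0.158, 95% interval -2.85 to -2.15, adjusted p = 5.08e-05), leaving 17.7% of the low-cholesterol mean. The exact two-sided permutation test gave p = 0.00794 in each genotype, the smallest that 5 replicates against 5 allow.

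Whether the response differed in *HR3-RNAi* or *TOR-RNAi* animals was tested as an interaction in 1 fit of all 30 libraries. Because no decrease of *Hr3* was detectable in *HR3-RNAi* animals, their interaction compares genotypes and not measured *Hr3* levels. The response of *Npc1b* in *HR3-RNAi* animals differed from that of controls by -0.01 on the log2 scale (SE 0.219, 95% interval -0.46 to 0.44, adjusted p = 0.994), and that in *TOR-RNAi* animals by 0.35 (SE 0.219, 95% interval -0.10 to 0.80, adjusted p = 0.684). These intervals leave room for a response in *TOR-RNAi* animals up to 0.80 log2 units smaller than in controls. None of the 5 genes was called in either interaction by edgeR or by DESeq2's Wald test, and none reached an unadjusted p under 0.05. Over all 12178 genes tested, 0% were called by edgeR in either interaction, with 818 and 1111 genes at an unadjusted p under 0.05, while DESeq2 called 37 and 114.

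**Figure D2:**
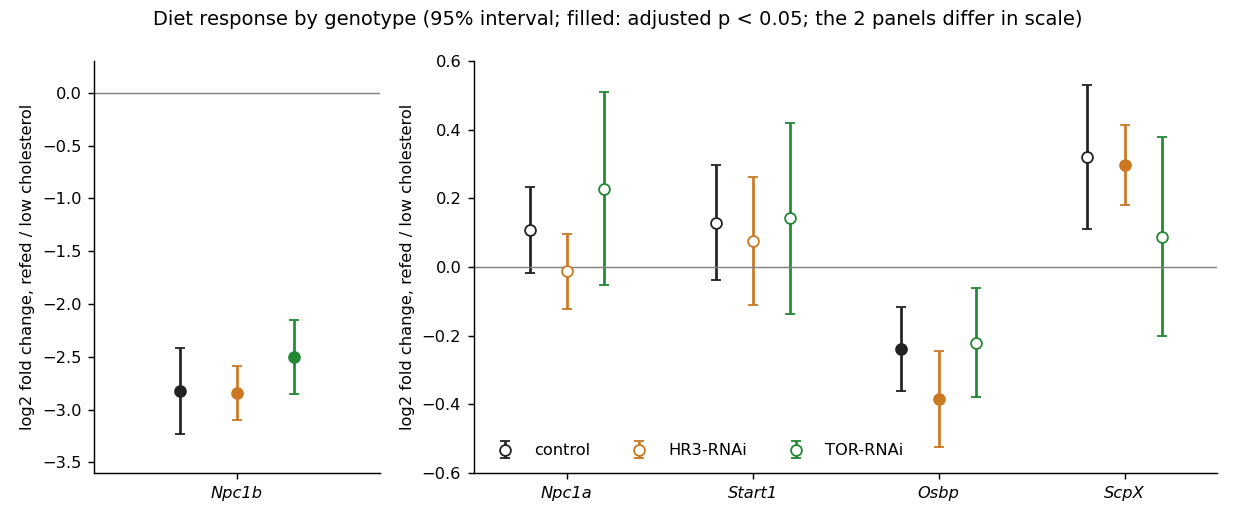
Log2 fold change of refed against low-cholesterol larvae for each gene in controls (black), *HR3-RNAi* animals (orange) and *TOR-RNAi* animals (green), with 95% intervals from edgeR and filled points where the adjusted p was under 0.05. *Npc1b* is drawn on its own scale near -2.8, and the intervals of *Npc1a* and *Start1* all include 0.

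Midgut markers were examined beside *Npc1b*. None of the 9 markers (*mex1*, *Myo31DF*, *GATAe*, *lab*, *cad*, *Vha100-4*, *alphaTry*, *betaTry* and *thetaTry*) was called in any of the 3 diet comparisons, and none was at 0. Their summed level ranged from 1350.2 to 1828 CPM in low-cholesterol and from 1217 to 1458 CPM in refed controls. In *HR3-RNAi* animals the sum was lower than in controls on both diets, at 791 to 1070.0 CPM and 876 to 968 CPM (1209.8 to 2030.2 and 1342 to 1637 CPM in *TOR-RNAi* animals). The 3 trypsin genes carried most of this difference, summing on low cholesterol to 894 to 1296 CPM in controls and 330.2 to 514 CPM in *HR3-RNAi* animals. After refeeding they summed to 696 to 930 CPM and 380 to 492 CPM. The other 6 markers, separated after their values were seen, overlapped between these genotypes on low cholesterol, at 456 to 533 and 461 to 556 CPM. After refeeding the ranges of the 6 met only at their ends, at 504.1 to 574 CPM in controls and 434 to 504.3 CPM in *HR3-RNAi* animals. *Npc1b* in *HR3-RNAi* animals overlapped controls on both diets. Within groups, after subtraction of group means, the correlation of *Npc1b* with the summed *roX* level over the 30 libraries was -0.57. With the *roX* level as a covariate, *Npc1b* was called in each genotype, with log2 fold changes of -3.09 (controls), -2.85 (*HR3-RNAi*) and -2.44 (*TOR-RNAi*).

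*Npc1a*, the lysosomal member of the pair, was not called in any diet comparison. In controls its mean was 67.8 ± 2.94 CPM on low cholesterol and 73.0 ± 3.11 CPM after refeeding (SD, n = 5). For *HR3-RNAi* animals these means were 76.7 ± 4.29 and 76.1 ± 2.68 CPM, and for *TOR-RNAi* animals 74.0 ± 11.8 and 86.7 ± 11.8 CPM. The log2 fold changes were 0.11 (95% interval -0.02 to 0.23), -0.01 (-0.12 to 0.10) and 0.23 (-0.05 to 0.51), all including 0 and all above the intervals of *Npc1b*. The diets overlapped in each genotype. The exact two-sided permutation test, not adjusted for the number of genes, gave p = 0.0397, 0.770 and 0.143.

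The single call between genotypes was *Npc1a* in refed *TOR-RNAi* animals, where 17.7% of all genes tested were called. Refed *TOR-RNAi* libraries had 89.0, 94.1, 97.6, 67.3 and 85.6 CPM, and refed controls 69.1, 73.9, 70.6, 74.2 and 77.0 CPM. The libraries overlapped, since replicate 4 of the *TOR-RNAi* group lay below all 5 controls. The log2 difference was 0.26 (SE 0.0833, adjusted p = 0.0316 from edgeR; exact permutation test, two-sided, p = 0.0476). The call did not hold when only the libraries compared were fitted (adjusted p = 0.121), and it was lost on leaving out any one library other than replicate 4 of either group, with adjusted p between 0.0557 and 0.151. Replicate 4 of the *TOR-RNAi* group also had the highest summed *roX* level of its group, 178 CPM against 48.3 to 88.5 CPM. With *roX* as a covariate, the difference was 0.31 (adjusted p = 0.00307).

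In the other genotype comparisons none of the 5 genes was called by edgeR or DESeq2. The share of all genes called by edgeR was 2.61% in low-cholesterol *HR3-RNAi* animals, 3.97% in refed *HR3-RNAi* animals and 3.71% in low-cholesterol *TOR-RNAi* animals, each against controls. At an unadjusted p under 0.05 there was 1 of the 5 genes in the first of these, *Npc1a* at 0.19 (95% interval 0.02 to 0.36), and 0 in the others, where 12.5%, 16.8% and 15.0% of all genes tested passed. *Npc1b* on low cholesterol was -0.30 on the log2 scale in *TOR-RNAi* animals relative to controls (95% interval -0.62 to 0.02, adjusted p = 0.380).

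Because the *Npc1* genes differ in length, their levels were set side by side as the deposited FPKM values, which divide each count by a length for its gene and by the depth of its library. On low cholesterol, *Npc1b* was at 218 ± 19.9 FPKM in controls and *Npc1a* at 12.9 ± 0.845 FPKM (SD, n = 5). Within a library, the low-cholesterol ratio of *Npc1b* to *Npc1a* was 16.9 ± 2.199 for controls, 15.8 ± 1.24 for *HR3-RNAi* animals and 12.6 ± 1.21 for *TOR-RNAi* animals. After refeeding, the ratios were 2.196 ± 0.588, 2.23 ± 0.352 and 1.95 ± 0.485. Thus *Npc1b* made up 92.6% to 94.4% of the summed FPKM of the pair on low cholesterol, as means of the 3 genotypes, and 65.3% to 68.8% after refeeding. In every library *Npc1b* was still the more abundant of the 2 transcripts, the lowest ratio being 1.37.

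The place of *Npc1b* in the order of the 5 genes changed with the diet, while the others kept their order. On low cholesterol it was *Npc1b*, *ScpX*, *Osbp*, *Npc1a* and *Start1* in each genotype, with means in controls of 218, 102, 45.6, 12.9 and 8.29 FPKM. Neighbours in this order did not overlap, except *Npc1b* and *ScpX* in *TOR-RNAi* animals. After refeeding, *ScpX* came first, at 126 ± 13.9 FPKM in controls, followed by *Osbp* at 38.3 ± 1.96 and *Npc1b* at 30.4 ± 8.61 FPKM, the last pair overlapping in all 3 genotypes. *Npc1a* and then *Start1* again came last.

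**Figure D3:**
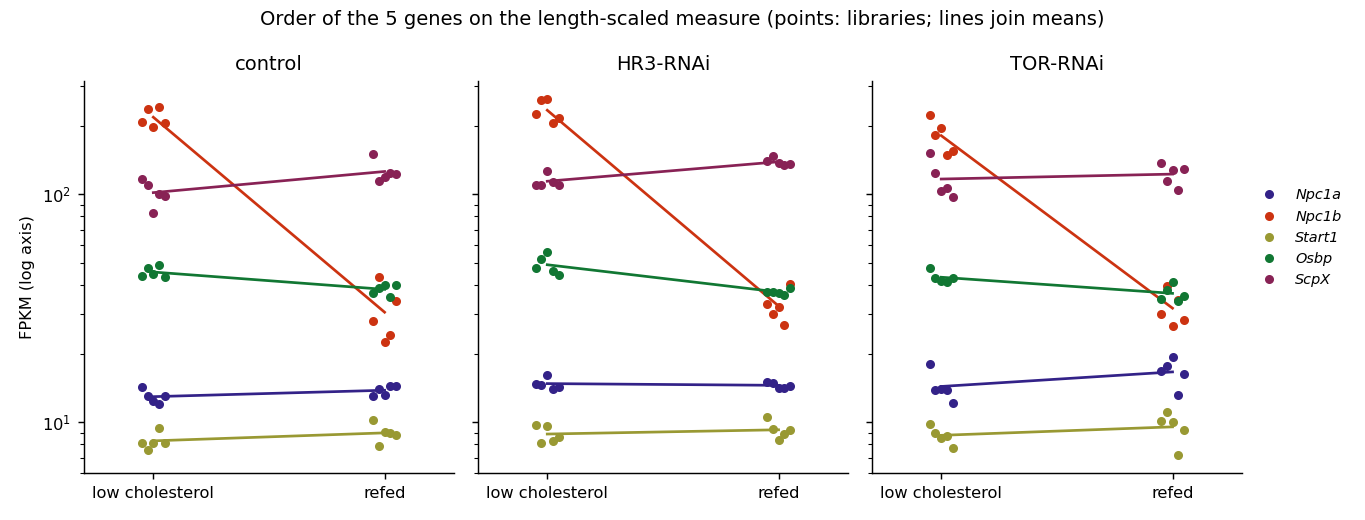
FPKM of the 5 genes on a log axis in low-cholesterol and refed larvae of each genotype, with points for libraries and lines that join group means. The line of *Npc1b* crosses those of *ScpX* and *Osbp* in all 3 panels, from 181 to 234 FPKM down to 30.4 to 32.4 FPKM.

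*Osbp*, the contact-site sterol exchanger, was lower after refeeding in each genotype, by less than *Npc1b*. In controls, libraries had 139, 157, 147, 165 and 140.2 CPM on low cholesterol and 123, 128, 134, 114 and 133 CPM after refeeding. The log2 fold change was -0.24 (SE 0.0552, 95% interval -0.36 to -0.12, adjusted p = 0.0384). This call was marginal: leaving out any one of the 10 libraries except replicate 1 of the low-cholesterol group raised the adjusted p over the threshold, to between 0.0582 and 0.110.

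In *HR3-RNAi* animals, *Osbp* had 157, 166, 181, 147 and 146 CPM on low cholesterol and 125, 120.0, 120.0, 117 and 128 CPM after refeeding. This was a log2 fold change of -0.38 (SE 0.0637, 95% interval -0.52 to -0.25, adjusted p = 0.00543), called with every library left out in turn. In *TOR-RNAi* animals the values were 155, 135, 138, 131 and 138 CPM and then 114.9, 127, 130.2, 109 and 118 CPM, with a log2 fold change of -0.22 (SE 0.0717, adjusted p = 0.369 from edgeR, 0.0489 from DESeq2). The diets did not overlap in any genotype. No difference in response between genotypes was detected, with interactions of -0.14 (95% interval -0.33 to 0.04) in *HR3-RNAi* and 0.04 (-0.15 to 0.22) in *TOR-RNAi* animals.

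*ScpX*, the thiolase with a sterol carrier domain, rose after refeeding in *HR3-RNAi* animals. It went from 211, 204, 237, 211 and 211 CPM to 272, 276, 257, 254 and 259 CPM without overlap. The log2 fold change was 0.30 (SE 0.0531, 95% interval 0.18 to 0.41, adjusted p = 0.00903), called with every library left out in turn but not in the fit of all 30 libraries (adjusted p = 0.159). In controls the values were 215, 209.8, 159, 197 and 185 CPM and then 289, 219, 230.3, 231 and 237 CPM. These did not overlap either, and the log2 fold change of 0.32 (SE 0.0948, 95% interval 0.11 to 0.53) was not called by edgeR (adjusted p = 0.107) but was by DESeq2 (adjusted p = 0.0370). In *TOR-RNAi* animals the diets overlapped, at 182 to 288 CPM and 194 to 263 CPM, and the log2 fold change was 0.09 (95% interval -0.20 to 0.38).

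The difference in *ScpX* response between *TOR-RNAi* animals and controls was -0.22 (SE 0.144, 95% interval -0.51 to 0.08, adjusted p = 0.711), so a weaker response in *TOR-RNAi* animals was not shown. Replicate 1 of the low-cholesterol *TOR-RNAi* group had the highest *ScpX* level of its group, 288 CPM, and also the highest *Npc1a* level, 93.5 CPM, and its summed *roX* level, 3.83 CPM, was the lowest of all libraries. Without it, the *TOR-RNAi* log2 fold change of *ScpX* was 0.21 and the difference from controls -0.10. Both values were the ends of their ranges over single libraries left out. The fold change ranged from 0.03 to 0.21 and the difference from -0.30 to -0.10. The summed level of 6 fat body markers (*Lsp1alpha*, *Lsp1beta*, *Lsp1gamma*, *Lsp2*, *Fbp1* and *Fbp2*) was 7.51% to 9.98% of the scaled counts in low-cholesterol controls and 10.3% to 11.8% in refed ones, without overlap, and 1 of the 6, *Fbp1*, was called as risen in controls. In *HR3-RNAi* animals the marker sum overlapped between the diets (8.77% to 12.02% and 9.84% to 12.2%) and none of the 6 was called. Whether fat body content had a part in the *ScpX* values was not tested in either genotype.

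*Start1*, the StAR-related gene, was the lowest of the 5 and was not called in any comparison. Control libraries had 19.0, 18.4, 19.8, 23.5 and 19.5 CPM on low cholesterol and 25.1, 19.1, 22.4, 21.2 and 21.6 CPM after refeeding, which overlapped. The means for *HR3-RNAi* animals were 21.3 ± 2.02 and 22.4 ± 2.24 CPM (SD, n = 5), and those for *TOR-RNAi* animals 20.8 ± 1.95 and 23.0 ± 3.89 CPM. The log2 fold changes were 0.13, 0.08 and 0.14, and their 95% intervals ran from -0.14 at the lowest to 0.42 at the highest. Transcripts of prothoracic gland genes were present at low levels in these whole animals: the 6 markers measured (*spok*, *sro*, *phm*, listed as *phtm*, *dib*, *sad* and *tor*) summed to between 15.8 and 38.5 CPM, and none of those that passed the filter on low counts (4 in controls, 5 in each RNAi genotype) was called with diet. How much of the *Start1* signal came from the gland was not tested.

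The share of genes whose 5 refed and 5 low-cholesterol libraries did not overlap was 5.2% of genes tested for controls, 5.64% for *HR3-RNAi* animals and 2.09% for *TOR-RNAi* animals. Among the 5 genes, 3 of 5 (*Npc1b*, *Osbp* and *ScpX*) did not overlap in controls, the same 3 did not in *HR3-RNAi* animals, and 2 (*Npc1b* and *Osbp*) did not in *TOR-RNAi* animals. In a comparison added after the data had been seen, the diet effect was averaged over the 3 genotypes in the fit of all 30 libraries, where 5.97% of genes tested were called. *Npc1b* fell by 2.72 on the log2 scale (SE 0.0950, adjusted p = 7.44e-18), *Osbp* fell by 0.28 (SE 0.0372, adjusted p = 3.82e-06), and *ScpX* rose by 0.24 (SE 0.0590, adjusted p = 0.0108). *Npc1a* was at 0.11 (SE 0.0481, adjusted p = 0.243) and *Start1* at 0.12 (SE 0.0594, adjusted p = 0.344).

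The coefficient of variation of replicates ranged over the 6 groups from 3.43% to 9.16% for *Osbp*, 3.52% to 15.9% for *Npc1a*, 3.73% to 19.5% for *ScpX*, 9.37% to 16.9% for *Start1* and 10.6% to 28.5% for *Npc1b*. Within groups, *Npc1a* varied with *ScpX* (correlation of log2 CPM 0.63) and *Start1* (0.62), and little with *Npc1b* (0.26), over 30 libraries that share the differences in *roX* level noted above. The correlation with the *roX* level itself was negative for all 5 genes, from -0.59 for *Npc1a* to -0.35 for *Start1*.

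Genes with the pattern most like that of each gene were found by the correlation of log2 CPM over the 30 libraries, among 9276 genes with a mean of at least 1 log2 CPM. These values are descriptions. For *Npc1b* they were *CG7381* (r = 0.99), *Hr96* (0.98), which encodes a nuclear receptor known to bind cholesterol, and *CG9663* (0.98). *CG7381* went from 988 to 1612 CPM in low-cholesterol controls to 100.4 to 207 CPM in refed ones, *Hr96* from 92.5 to 109.6 CPM to 30.6 to 38.4 CPM, and *CG9663* from 51.4 to 65.5 CPM to 18.0 to 29.0 CPM. Once group means were removed, the correlations with *Npc1b* were 0.84 for *CG7381*, 0.62 for *Hr96* and 0.82 for *CG9663*.

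**Figure D4:**
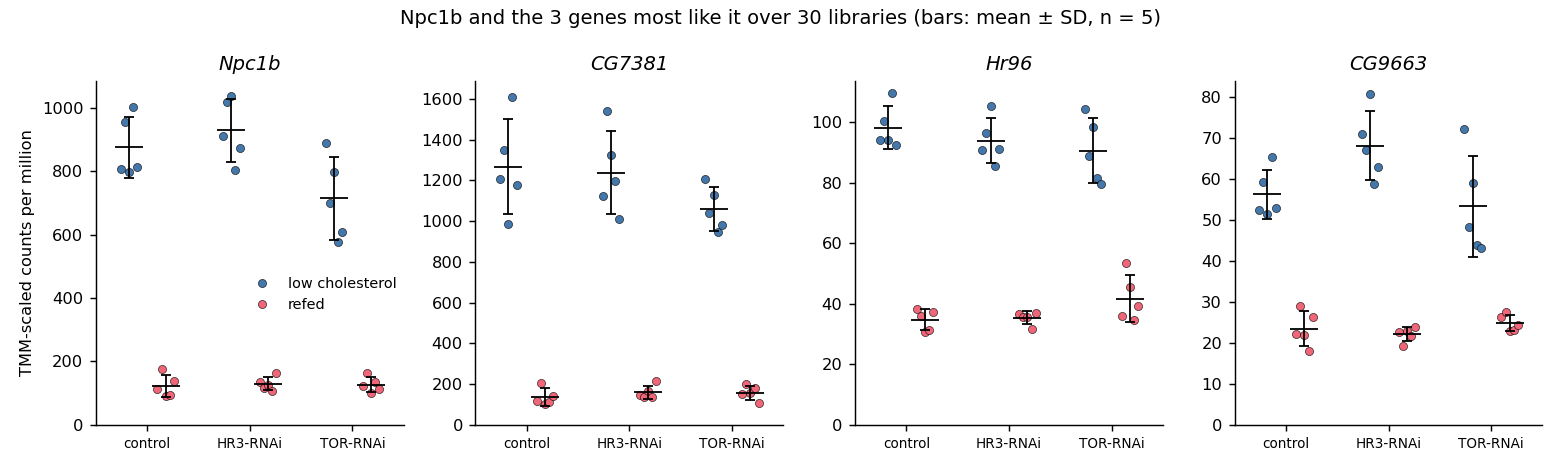
*Npc1b* and the 3 genes most like it over the 30 libraries, in TMM-scaled CPM on axes that start at 0, by genotype and diet, with mean ± SD of 5 replicates. All 4 genes are lower in every refed library than in any low-cholesterol library, and in controls *CG7381* goes from 988 or more to 207 or less.

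For *Npc1a*, the most alike were *Sap-r* (r = 0.94), which encodes lysosomal saposins, *CG3662* (0.92) and *Lerp* (0.91), the lysosomal enzyme receptor. Their within-group correlations with *Npc1a* were 0.94, 0.89 and 0.92, so these genes varied with *Npc1a* among replicates. The spread was widest in *TOR-RNAi* animals. For *Sap-r* the SD there was 226 CPM on low cholesterol and 230 CPM after refeeding, against 11.6 to 95.4 CPM in the other groups. *Sap-r* and *Lerp* were highest in replicate 1 of the low-cholesterol and lowest in replicate 4 of the refed *TOR-RNAi* group, the libraries with extreme *roX* levels named above. For *Osbp*, the most alike were *Baldspot* (0.90), a fatty acid elongase gene, *Pis* (0.90), which encodes phosphatidylinositol synthase, and *CG8668* (0.90). Within groups these correlated with *Osbp* at 0.73, 0.76 and 0.58. For *ScpX* the most alike were *yip2* (0.87), itself a thiolase gene, *CG8814* (0.86) and *Pgm2a* (0.85). Those for *Start1* were, less closely, *CG14767*, *CG8031* and *CG30423* (0.80, 0.79 and 0.79).

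Of 38 other sterol transport genes matched from 6 lists, 35 were tested in controls, where 4 rose and 5 fell (2.5% of all genes tested were called as risen and 1.34% as fallen). In *HR3-RNAi* animals, 1 rose and 6 fell of 35 (1.58% and 1.86% of all genes tested). In *TOR-RNAi* animals, 1 rose and 2 fell of 36 (0.38% and 0.182% of all genes tested). The median log2 fold change of the tested genes was 0.03, -0.04 and -0.002 in the 3 genotypes.

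The *Npc2* genes encode the soluble partners of the Npc1 proteins, and 7 of the 8 were tested. In controls, *Npc2c* rose from 0 to 4 counts a library to 1639 to 2807 counts, or from at most 0.127 CPM to between 86.9 and 112 CPM (adjusted p = 2.8e-09). It also went from at most 0.0862 CPM to 63.2 to 89.3 CPM in *HR3-RNAi* animals (adjusted p = 9.67e-10) and from at most 0.329 CPM to 73.5 to 124 CPM in *TOR-RNAi* animals (adjusted p = 5.18e-06). No fold change is given, since counts on low cholesterol were at or near 0. *Npc2d* fell as *Npc1b* did, by 2.51 (SE 0.216) in controls, 2.88 (SE 0.265) in *HR3-RNAi* and 2.01 (SE 0.213) in *TOR-RNAi* animals on the log2 scale. *Npc2g* rose by 0.34 (SE 0.0695, adjusted p = 0.0196) in controls, and *Npc2a*, at 68.0 ± 5.79 and 66.3 ± 4.59 CPM, was not called.

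**Figure D5:**
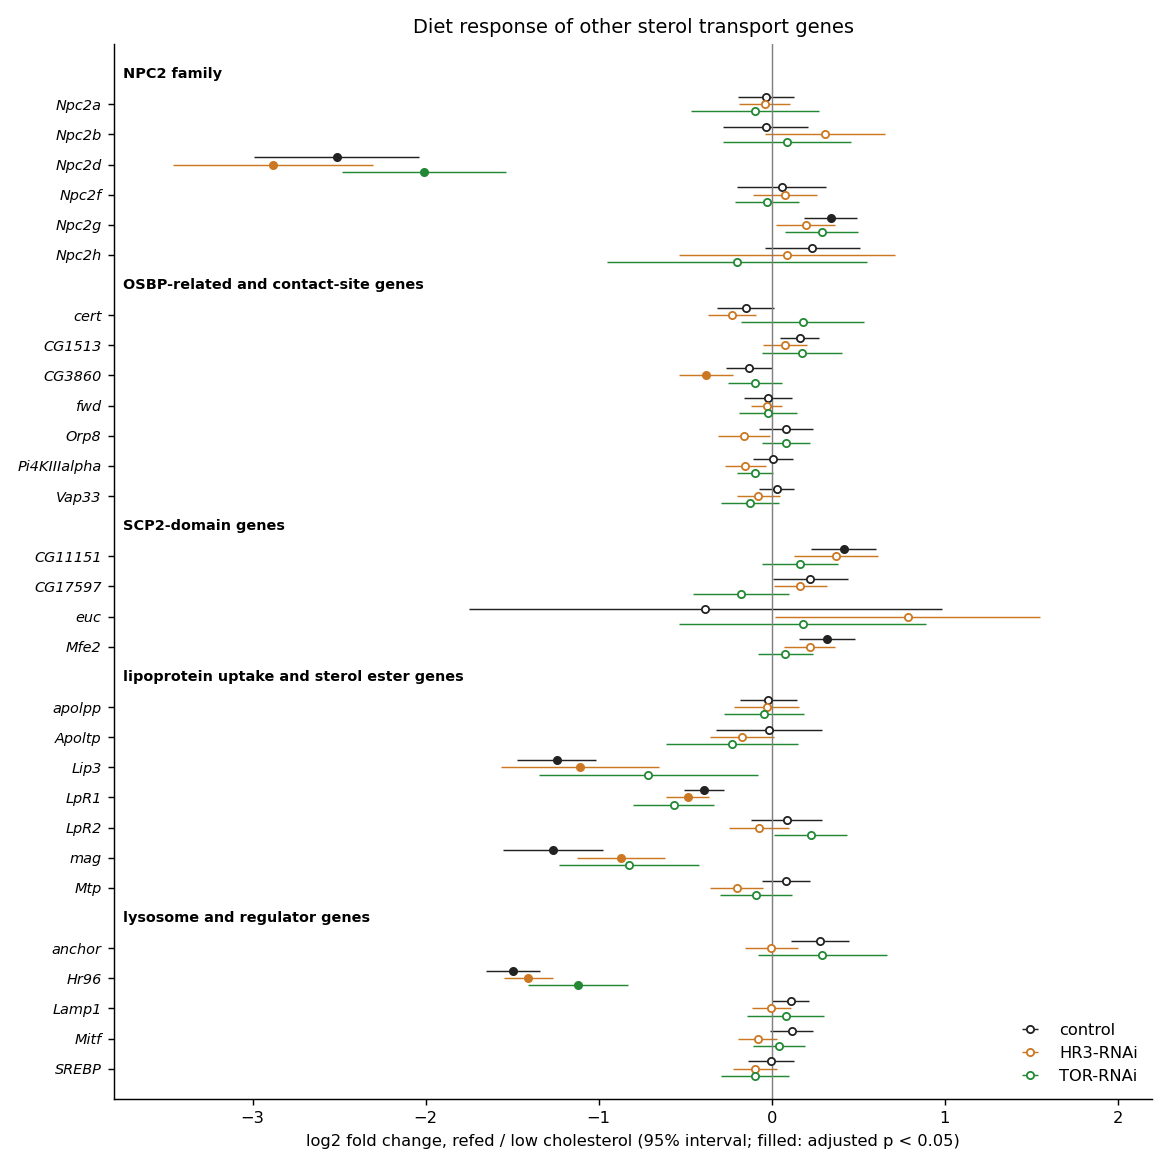
Log2 fold change of refed against low-cholesterol larvae, with 95% intervals, for tested genes of 5 of the sterol transport lists in controls (black), *HR3-RNAi* animals (orange) and *TOR-RNAi* animals (green). Filled points had an adjusted p under 0.05; *Npc2c*, whose low-cholesterol counts were near 0, and *Hr3* are not drawn. *Npc2d*, *Hr96*, *mag*, *Lip3* and *LpR1* lie below 0 in all 3 genotypes, and most other genes lie within 0.5 of 0.

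Among 7 tested genes of the *Osbp* kind (OSBP-related and contact-site genes), none was called in controls or *TOR-RNAi* animals. In *HR3-RNAi* animals 1 of the 7 fell, *CG3860*, an OSBP-related gene, by 0.38 (SE 0.0719, adjusted p = 0.0120), much as *Osbp* itself. Of 4 genes with a sterol carrier protein 2 domain like that of *ScpX*, 2 rose in controls, *CG11151* by 0.42 (SE 0.0847, adjusted p = 0.0192) and the peroxisomal *Mfe2* by 0.32 (SE 0.0733, adjusted p = 0.0377). None of the 4 was called in the other genotypes, where *CG11151* was at 0.37 (*HR3-RNAi*) and 0.16 (*TOR-RNAi*) and *Mfe2* at 0.22 and 0.08 on the log2 scale.

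Genes for lipoprotein uptake and sterol ester cleavage fell together with *Npc1b* in controls in 3 of 7 cases, the intestinal lipase gene *mag* by 1.27 (SE 0.131), the lipase gene *Lip3* by 1.24 (SE 0.103) and the lipophorin receptor gene *LpR1* by 0.39 (SE 0.0519). All 3 also fell in *HR3-RNAi* animals. In *TOR-RNAi* animals, where 0.562% of all genes tested were called, none of the 7 was called. Their log2 fold changes ran from -0.82 to 0.23. *mag*, *Lip3* and *LpR1* were all below 0 there, with *LpR1* at -0.57 (SE 0.107, adjusted p = 0.0509). Of the lysosome and regulator genes, *Hr96* fell in all 3 genotypes, by 1.496 (SE 0.0710), 1.41 (SE 0.0648) and 1.12 (SE 0.131), while *SREBP*, *Lamp1*, *Mitf* and *anchor* were not called.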

How the data were processed

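RNA of whole larvae was sequenced in 30 libraries. The authors deposited gene counts, not normalized, and FPKM values; CASAVA, HISAT2, StringTie, featureCounts, DESeq2 and edgeR are named in the submitters' processing notes, and the genome build is not given in the sources used here. Over 8043 genes with at least 50 counts in every library, the deposited FPKM equalled count times 1 factor per gene and 1 per library. FPKM therefore served to compare genes with each other and, beyond that, only as input to the limma alternatives. Of 17713 features, 17251 had a symbol and 155 were unannotated loci. Counts passing edgeR's filter on low counts were scaled by TMM and fitted with edgeR 4.0.16 in R 4.3.3 (quasi-likelihood test), with 10 libraries per diet comparison and all 30 for the others. Single values were compared with an exact two-sided permutation test over samples. Alternatives used DESeq2 1.42.0, limma 3.58.1 on log2(FPKM + 1), other filters and scalings, a replicate block, a *roX* covariate and each library left out. The genes, lists and tests were chosen with earlier results of these data known. Genes named were the 5 genes, the RNAi targets, for each of the 5 the 3 genes most correlated with it, and up to 6 list genes that rose and 6 that fell in controls; *CG3860* and the list genes named as not called were added after their values were seen. The prior count was 2 for correlations. Of the listed symbols, *Sac1* and *nvd* were not matched and were not analysed here, and the genes of 1 further list are counted in the totals but not reported here by name. No pair of libraries differed by less than sampling noise, and no sequencing batch is named. Scripts were tested on simulated data.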

Additional observations from a re-analysis of the deposited data

Results flagged for a closer look

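In 48 sets of 5 replicates (the 5 genes, *Tor*, *Hr3* and the summed *roX* level in 6 groups), 5 had 1 library far from the others by Dixon's test, which chance alone does in about 1 in 20 sets; 3 of these were in the 30 sets of the 5 genes. *Start1* was at 23.5 CPM in replicate 4 of low-cholesterol controls, against 18.4 to 19.8 CPM in the others. *ScpX* was at 289 CPM in replicate 1 of refed controls, against 219 to 237 CPM. It was at 237 CPM in replicate 3 of low-cholesterol *HR3-RNAi* animals, against 204 to 211 CPM. *Hr3* was at 0.820 CPM in replicate 4 of refed controls, against 0.106 to 0.201 CPM, and the summed *roX* level in the same library was 166 CPM, against 10.3 to 53.4 CPM.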

How the results depend on the processing

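The fall of *Npc1b* was called in all 3 genotypes under every alternative, and leaving out single libraries gave log2 fold changes from -3.00 to -2.75 (controls), -2.94 to -2.78 (*HR3-RNAi*) and -2.59 to -2.41 (*TOR-RNAi*). The number of the 5 genes called in controls was 1 in place of 2 with a replicate block, where *Osbp* had an adjusted p of 0.199, 1 to 2 on leaving out single libraries and 3 with DESeq2's Wald test. In *HR3-RNAi* animals it was 2 in place of 3 with the block and in the fit of all 30 libraries. The number in *TOR-RNAi* animals was 2 with DESeq2's Wald test. The number between refed *TOR-RNAi* animals and controls was 0 with only the libraries compared and 0 to 1 with each library left out. With a replicate block *ScpX* in *HR3-RNAi* animals had an adjusted p of 0.0505. Replicate numbers did not pair the samples: the mean correlation of same-numbered libraries between diets was -0.06 (controls), 0.19 (*HR3-RNAi*) and -0.03 (*TOR-RNAi*), and 0, 1 and 1 of 5 libraries correlated best with their own number.

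Differences near 0 changed sign, none of them called. The interaction of *Npc1b* in *HR3-RNAi* animals was 0.15 with the *roX* covariate, 0.0211 with a replicate block and 0.0167, 0.0205 and 0.0167 with limma at pseudocounts of 1, 0.1 and 1 without a filter. With the *roX* covariate it was 0.00239 for *Start1* and 0.0371 for *ScpX*, *Osbp* in refed *HR3-RNAi* animals against controls was 0.0146, and *Start1* in low-cholesterol *TOR-RNAi* animals was -0.00182. The interaction of *Start1* in *TOR-RNAi* animals was -0.000521, -0.00202 and -0.000521 with the same limma settings. With each library left out, the ranges were -0.11 to 0.15 (*Npc1b*), -0.11 to 0.00416 (*Start1*) and -0.0724 to 0.0498 (*ScpX*) for the *HR3-RNAi* interaction, and -0.0655 to 0.10 (*Start1*) and -0.0203 to 0.0762 (*Osbp*) for the *TOR-RNAi* interaction. They were -0.0330 to 0.0189 for *Npc1a* with diet in *HR3-RNAi* animals, -0.0253 to 0.24 (*Npc1b*) and -0.0169 to 0.10 (*Start1*) for refed *HR3-RNAi* animals, -0.000240 to 0.10 (*Start1*) for low-cholesterol *TOR-RNAi* animals, and -0.0726 to 0.20 (*Npc1b*), -0.11 to 0.0279 (*ScpX*) and -0.00658 to 0.16 (*Start1*) for refed *TOR-RNAi* animals. The cause was not tested.

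Counts over all genes moved more. The 436 genes called in controls became 209 with the block and 729 with DESeq2, the 400 in *HR3-RNAi* animals 705 with DESeq2, and the 65 in *TOR-RNAi* animals 30 with the block, 108 with the *roX* covariate, 263 with DESeq2 and 339 in the fit of all libraries. Leaving out a library gave 289 to 443, 254 to 419 and 38 to 82. Between genotypes, 318, 484, 452 and 2158 genes became 500, 793 and 682 with DESeq2 for the first 3 and 1263, 219 and 1338 with only the libraries compared for the last 3. The interaction in *TOR-RNAi* animals gave 20 genes with the *roX* covariate and up to 71 with a library left out, and that in *HR3-RNAi* animals 1 with only the libraries compared. Depth did not limit the 5 genes. Changes under about 0.2 on the log2 scale were within the intervals of most comparisons of *Npc1b*, *ScpX* and *Start1*. The intervals of *Osbp*, and most of those of *Npc1a*, were narrower than that.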
